A study of Saccharomyces cerevisiae with 8 samples.

Results

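Ty3 and Ty4 are the rarer long terminal repeat (LTR) retrotransposon families of the budding yeast Saccharomyces cerevisiae, and 8 of the 7126 features in the deposited expression table are their reading frames. The 8 frames were taken by name: YGR109W-A, YGR109W-B, YIL082W and YIL082W-A belong to Ty3, and YHL009W-A, YHL009W-B, YJL114W and YJL113W belong to Ty4. All 8 passed the filter, a mean RPKM of 1 or more, which 6366 features met. RPKM is a read count divided by feature length in kilobases and by a library size. RNA was measured in a WT strain (GH69), a cac2 mutant (GH182), a psh1 mutant (GH72) and a psh1 cac2 mutant (GH194), with 2 libraries of each. Psh1 is the ubiquitin ligase through which surplus Cse4, the histone H3 variant of centromeres, is degraded. Cac2 belongs to CAF-1, the chaperone complex that assembles nucleosomes on newly replicated DNA. Every group, WT included, was grown for 10 h in galactose at 4% and 30 °C to overexpress Cse4, after raffinose medium, so the comparisons are between genotypes under Cse4 overexpression. No library without the induction was analysed here, and the labels name neither the mating type, nor other alleles, nor the construct that carries Cse4. Cultures were grown in duplicate per strain, but the labels do not say whether the libraries of a strain came from independent clones, so p-values measure the spread between these libraries.

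The genotypes could be checked in the data. PSH1 had 0 to 2 reads in the psh1 and psh1 cac2 libraries and 932 to 1128 in the others, and CAC2 had 1 to 7 reads in the cac2 and psh1 cac2 libraries and 837 to 1155 in the others. CSE4 was abundant in every group, but unequally so, with a mean RPKM from 9871 in psh1 to 23172 in psh1 cac2. The reads recovered from the values of the listed features summed to between 30767479 and 34561708 per library.

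An LTR retrotransposon is transcribed from one repeat to the other, and its RNA is both the message for its proteins and the template for a new DNA copy. The gag frame encodes the structural protein of the virus-like particle, and the longer gag-pol frame, read through by a ribosomal frameshift, adds the protease, reverse transcriptase and integrase. Ty3 is a relative of the metazoan gypsy elements, is transcribed most strongly in haploid cells exposed to mating pheromone, and inserts at the start sites of genes read by RNA polymerase III. Ty4, like the abundant Ty1 and Ty2, is of the copia kind and also inserts near tRNA genes.

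The insertions themselves are shown first, because the flanks mark the site of each of the 4 elements. In the reference genome (build R64, the assembly known as sacCer3) the Ty3 elements are YGRWTy3-1 at chrVII:707195-712545 and YILWTy3-1 at chrIX:205220-210647, and the Ty4 elements that hold the named frames are YHLWTy4-1 at chrVIII:85539-91761 and YJLWTy4-1 at chrX:197545-203768, all on the plus strand. Each is flanked on both sides by an identical repeat of 5 bases, the copy of the target made on insertion, which is in capitals in the 20 bases before and after each element.
YGRWTy3-1, before: cgagcttgattttctGAAAG
YGRWTy3-1, after: GAAAGttccattttggatgc
YILWTy3-1, before: tttttccatatcatgGAACA
YILWTy3-1, after: GAACAtatgaaatatctggt
YHLWTy4-1, before: atataaaatatgaatCATAC
YHLWTy4-1, after: CATACtgtagagtgggtgaa
YJLWTy4-1, before: aactaatagttatatTATCA
YJLWTy4-1, after: TATCAatatattattgaaga

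The 4 target repeats differ in sequence. YGRWTy3-1 lies 15 bases from the 5′ end of a tRNA-Cys gene and YILWTy3-1 lies 17 bases from that of a tRNA-Ile gene. The Ty4 elements lie farther out, YHLWTy4-1 at 167 bases from a tRNA-Val gene and YJLWTy4-1 at 159 bases from a tRNA-Ala gene, with a piece of a Ty3 LTR and a piece of a Ty1 LTR nearby in both cases. Of these tRNA genes, the tRNA-Cys and tRNA-Ala genes were found among the listed features, at 0 to 1 and 0 to 3 reads per library, so their own level was not measurable.

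**Figure D1:**
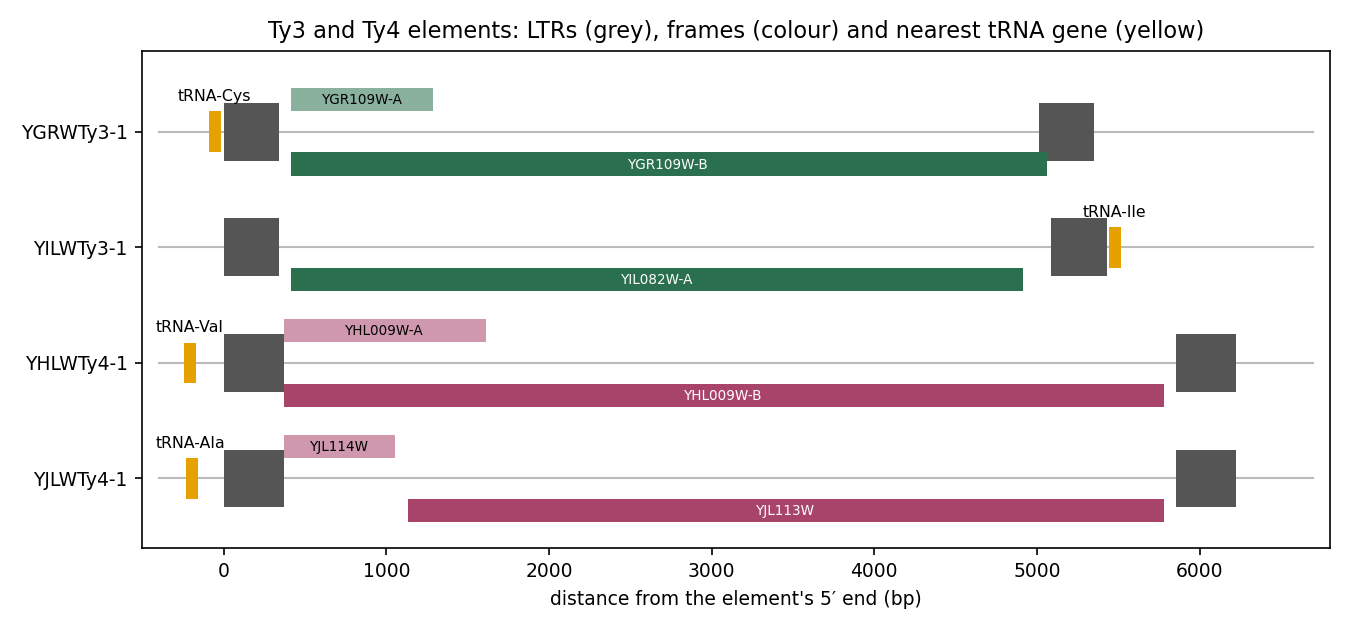
Map of the 4 elements, drawn to scale along the distance from each element's 5′ end in base pairs, with LTRs in grey, reading frames in green (Ty3) and red (Ty4), and the nearest tRNA gene in yellow. The Ty3 elements lie 15 and 17 bases from a tRNA gene and the Ty4 elements 167 and 159 bases; YIL082W has no entry in the RefSeq annotation and is not drawn.

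The LTR holds the promoter, so its first part is shown for Ty3. The 5′ LTRs of the Ty3 elements are 340 bases long and identical to each other, with 0 substitutions, and each element's own LTRs are identical too. The first 200 bases (chrVII:707195-707394, plus strand) contain 1 copy of TGAAACA, the pheromone response element bound by Ste12, starting at position 68 of the LTR, and 1 copy of TATAAA, the core of a TATA box, at position 138. Both are in capitals.
Ty3 LTR, first 200 bases: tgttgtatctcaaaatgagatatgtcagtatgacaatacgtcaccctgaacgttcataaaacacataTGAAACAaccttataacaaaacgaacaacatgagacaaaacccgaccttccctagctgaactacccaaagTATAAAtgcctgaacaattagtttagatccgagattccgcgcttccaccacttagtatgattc

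For Ty4 the window runs from 250 bases before to 50 bases after the start of the gag frame YHL009W-A (chrVIII:85659-85958, plus strand), which begins at the last base of the LTR. It holds TGAAACA 21 bases into the frame, and TATAAA on the minus strand, seen below as TTTATA, at 82 bases before the frame. Both are in capitals.
Ty4 window, YHLWTy4-1: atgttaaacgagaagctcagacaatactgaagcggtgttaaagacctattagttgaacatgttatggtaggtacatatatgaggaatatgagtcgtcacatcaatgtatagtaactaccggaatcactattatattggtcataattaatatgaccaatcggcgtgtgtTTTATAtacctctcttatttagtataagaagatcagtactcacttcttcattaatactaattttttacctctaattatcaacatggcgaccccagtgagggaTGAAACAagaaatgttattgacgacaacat

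Both strands were searched, and the motifs do not overlap. A match is a description of the letters. TGAAACA occurs in 5.083% and TATAAA in 38.023% of windows of 200 bases before all 6020 annotated gene starts used, and in 7.475% and 45.382% of windows of 300 bases. The Gcn4 site TGACTCA, present in 2.724% of the longer windows, was found in none of the 4 elements' windows. The pieces shown differ between the families, and the matches do too. In the 300 bases around the first frame, both Ty3 elements held no TGAAACA, and TATAAA on the minus strand only. In the first 200 bases of the 5′ LTR, both Ty4 elements held neither TGAAACA nor TATAAA. The TGAAACA of the Ty4 window lies inside the reading frame. The 5′ LTRs of the Ty4 elements, of 371 bases, differ from each other at 3 positions. Within YHLWTy4-1 the 5′ and 3′ LTRs differ at 5 positions, and within YJLWTy4-1 at 0.

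Because copies of a family are nearly identical, reads cannot always be placed. The Ty3 elements are 97.84% identical, with 38 substitutions and 79 gap columns, and the Ty4 elements are 99.24% identical, with 46 substitutions. Of all stretches of 100 bases, 57.02% in YGR109W-B and 57.42% in YIL082W-A occur once in the genome, but 44.58% in YJL113W and 3.69% in YHL009W-B do. The sources used here do not state how shared reads were assigned or how long the reads were, so the values of single copies, those of YHL009W-A and YHL009W-B most of all, are uncertain. The gag frames YGR109W-A and YHL009W-A also lie inside the gag-pol frames YGR109W-B and YHL009W-B, so the 8 frames are fewer than 8 independent measurements. YIL082W has no coordinates in the annotation used, so whether it lies inside YIL082W-A could not be checked. Its inferred length, 873 bases, equals that of YGR109W-A.

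All 8 frames were present at a low level. Within each element the gag-pol frame had the higher RPKM, and the highest were YIL082W-A with 10.5 ± 1.27 (SD over the 8 libraries) and YJL113W with 10.2 ± 1.02, followed by YHL009W-B with 9.06 ± 1.05. These are the frames that also encode the enzymes of each element. YIL082W, the Ty3 gag frame of chromosome IX, had 7.91 ± 1.02, and YGR109W-B, the Ty3 gag-pol frame of chromosome VII, had 7.19 ± 0.994. The remaining gag frames were lowest, at 5.97 ± 0.702 for YHL009W-A, 4.34 ± 0.885 for YJL114W and 3.77 ± 0.847 for YGR109W-A. Within libraries the order was steady except at its ends: YIL082W-A exceeded YJL113W in 5 of 8 libraries and YJL114W exceeded YGR109W-A in 7 of 8, while each other frame exceeded the next in 8 of 8.

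These levels lie between the 6.86 and the 14.1 percentile of the tested features, whose median mean RPKM was 33.4. The 39 Ty1 and Ty2 gag-pol frames, whose shared reads were not examined, had a median mean RPKM of 915 and a lowest of 472. Reads behind a value ran from 74 for YJL114W in psh1 replicate 2 to 1752 for YHL009W-B in cac2 replicate 2. Counting alone gives an error of 2.39% to 3.3% of the RPKM for gag-pol frames and of 6.05% to 11.62% for gag frames in a library, so the gag values are the less precise.

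**Figure D2:**
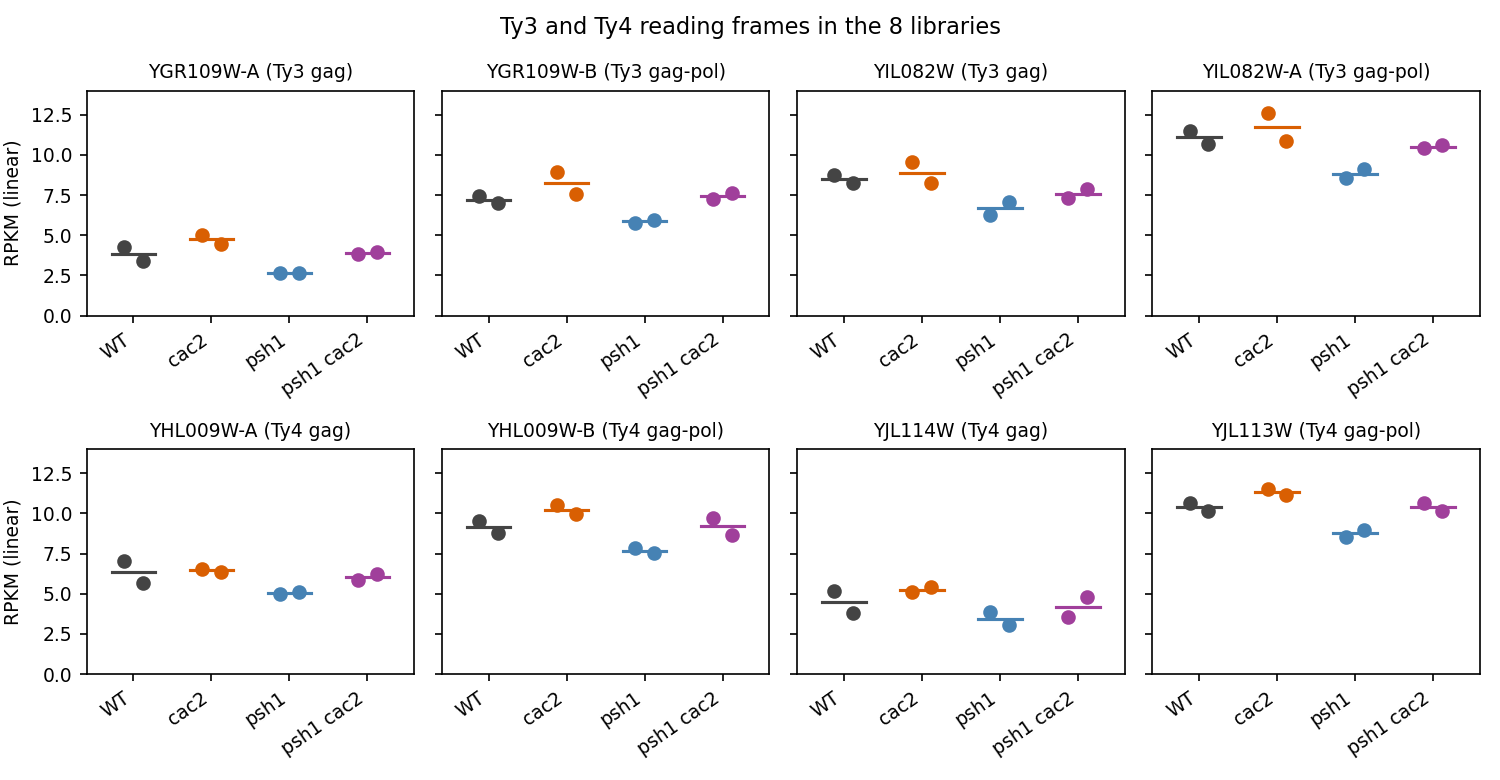
RPKM (linear axis from 0) of the 8 frames in WT, cac2, psh1 and psh1 cac2; points are libraries and bars are means of 2. The psh1 libraries are the lowest in every panel except for YJL114W, whose psh1 replicate 1 (3.85) lies above WT replicate 2 (3.81) and psh1 cac2 replicate 1 (3.55).

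Frames of the gag kind were below the gag-pol frame of the same element in every library. The ratio of gag RPKM to gag-pol RPKM was 0.445 to 0.593 for YGRWTy3-1 (YGR109W-A over YGR109W-B) and 0.704 to 0.777 for YILWTy3-1 (YIL082W over YIL082W-A). It was 0.603 to 0.739 for YHLWTy4-1 (YHL009W-A over YHL009W-B) and 0.333 to 0.486 for YJLWTy4-1 (YJL114W over YJL113W, which do not overlap). So all 4 elements were below 1 in 8 of 8 libraries, and the ranges of the Ty3 copies did not overlap. YJL113W, as annotated, starts after the end of YJL114W and does not contain it. The ratio of YJLWTy4-1 is thus not the same measure as those of YGRWTy3-1 and YHLWTy4-1, where gag lies inside gag-pol. Among 39 Ty1 and Ty2 elements the ratio, as a median over libraries, ran from 0.618 to 1.25 with a median of 0.991, and 22 of 39 were below 1. No test was made of this difference, and the share of reads placed by copy was not tested as a part of it.

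**Figure D3:**
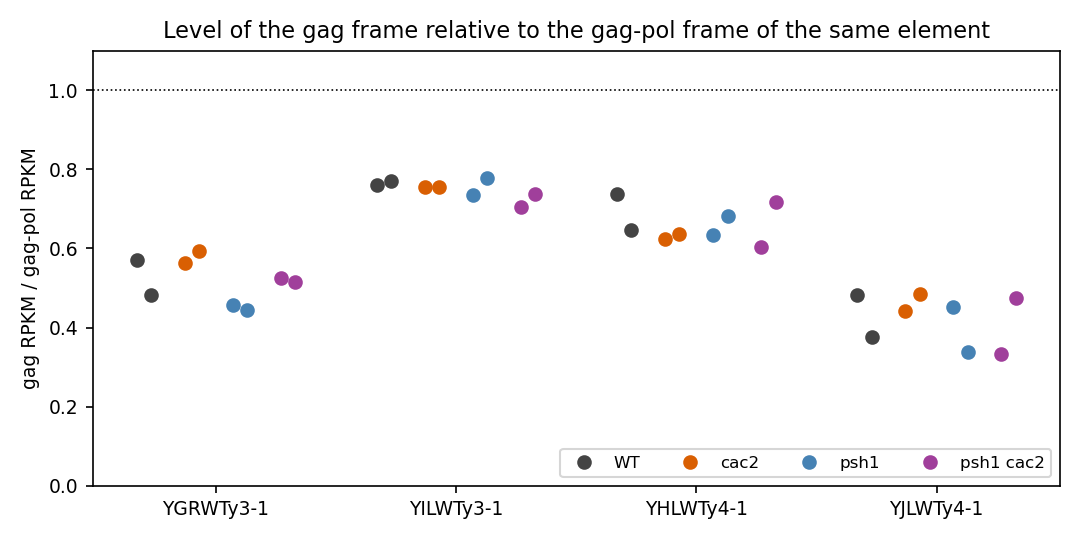
Ratio of gag RPKM to gag-pol RPKM (linear axis from 0) of each element in each library, coloured by genotype, with a dotted line at 1. All points lie below 1, between 0.333 for YJLWTy4-1 and 0.777 for YILWTy3-1.

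Loss of CAC2 left Ty3 and Ty4 RNA without a called change, in libraries in which Ty1 and Ty2 RNA rose. The Ty3 gag-pol frame YGR109W-B had an RPKM of 7.43 and 7.00 in WT and of 8.91 and 7.56 in cac2, and YIL082W-A had 11.5 and 10.7 in WT and 12.6 and 10.9 in cac2. The cac2 libraries were both above WT for YGR109W-B and overlapped WT for YIL082W-A. For Ty4, YHL009W-B had 9.50 and 8.79 in WT and 10.5 and 9.97 in cac2, and YJL113W had 10.7 and 10.1 in WT and 11.5 and 11.2 in cac2, so cac2 was above WT in both. In bulk cultures, fewer cells with the RNA and less RNA per cell cannot be told apart. Differences are given as log2 changes of RPKM + 1, which understate the change of low features, with the limma standard error (SE). The changes were 0.17 (SE 0.0906) for YGR109W-B, 0.07 (SE 0.0822) for YIL082W-A, 0.15 (SE 0.0792) for YHL009W-B and 0.12 (SE 0.0658) for YJL113W, with limma adjusted p-values of 0.324, 0.639, 0.316 and 0.337. The gag frames gave 0.26 for YGR109W-A, 0.05 for YIL082W, 0.03 for YHL009W-A and 0.20 for YJL114W, with limma adjusted p from 0.25 to 0.90. Leaving out 1 library gave 0.13 to 0.39 for YGR109W-A, 0.02 to 0.38 for YJL114W and 0.06 to 0.27 for YGR109W-B. It gave 0.10 to 0.20 for YHL009W-B and 0.08 to 0.15 for YJL113W. The range crossed 0 for YIL082W (-0.042 to 0.15), YIL082W-A (-0.026 to 0.17) and YHL009W-A (-0.105 to 0.16).

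With limma, 0 of the 8 frames were called in cac2 against WT, where 4.26% of all features were, and 0 of the 8 had an unadjusted p under 0.05, against 22.5% of all features. In 4 of 8 frames both cac2 libraries were above both WT libraries, against 25.5% of all features. The median change was 0.13, beside -0.0016 over all features and 0.09 over the 452 features whose mean RPKM lay within the frames' own range. The highest upper bound of a 95% interval among the 8 frames was 0.59, for YJL114W. By contrast 81 of 81 Ty1 and Ty2 frames were called higher, with a median of 0.76 and a range of 0.56 to 0.83, and 76 of them lay above that bound. Most of these are gag and gag-pol frames of the same elements, and reads shared between copies were not examined. Here and below, the 81 frames are therefore fewer than 81 independent measurements. When libraries were scaled to their total reads instead of the authors' library sizes, the median of all features moved to -0.13 and that of the 8 frames to 0.01, with 4 above and 4 below 0; relative to all features the frames' median was then 0.14 as against 0.13, and the Ty1 and Ty2 median was 0.63. Quantile normalization put 6 frames above and 2 below 0.

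**Figure D4:**
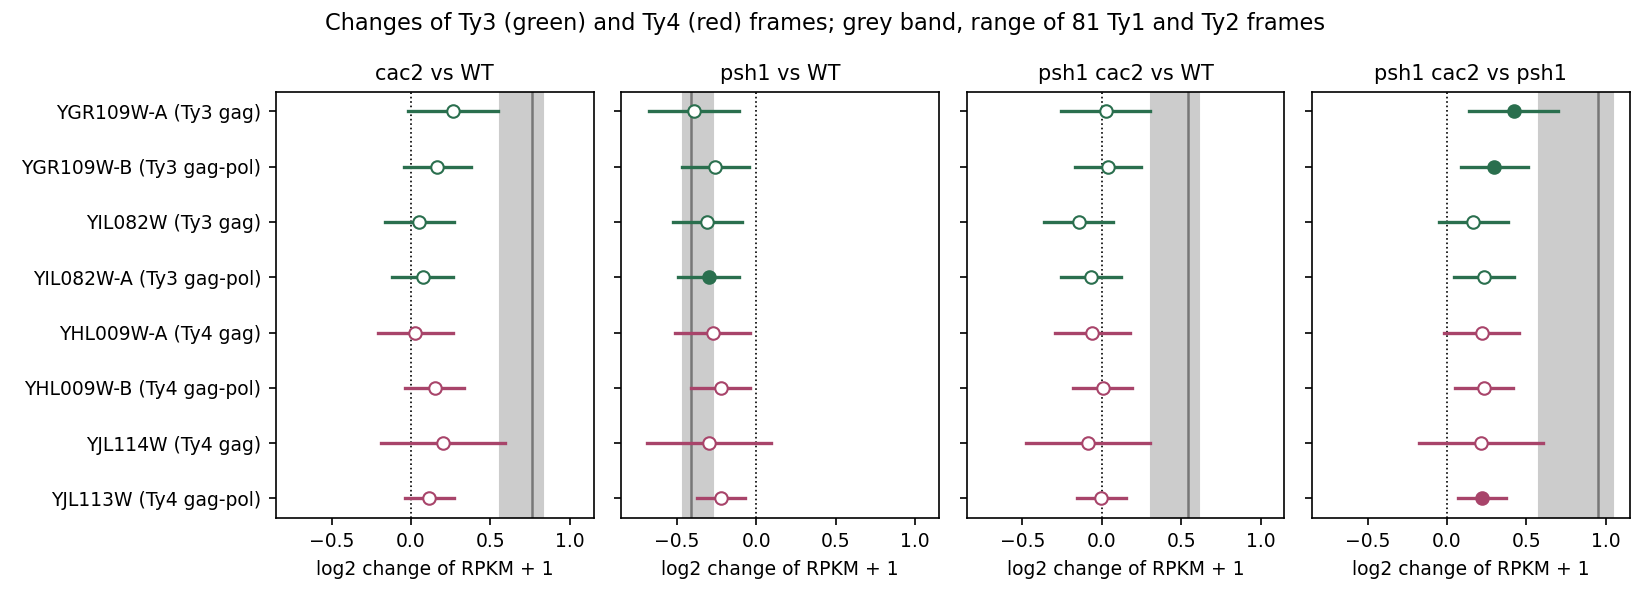
Log2 change of RPKM + 1 with 95% intervals for the 8 frames (Ty3 green, Ty4 red; filled points are called by limma) in 4 comparisons; the grey band is the range of the 81 Ty1 and Ty2 frames and the line in it their median. In cac2 against WT all 8 estimates (0.03 to 0.26, a direction that 4 frames lose under total-read scaling) lie left of the band that begins at 0.56, and in psh1 against WT the estimates (-0.39 to -0.22) lie in or near the band around -0.41.

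In psh1 against WT 1 Ty3 frame fell, and the other 7 frames had estimates below 0 that did not pass the test. YIL082W-A, the Ty3 gag-pol frame of chromosome IX, fell from 11.5 and 10.7 in WT to 8.53 and 9.09 in psh1, a log2 change of -0.30 (SE 0.0822, limma adjusted p = 0.0481), and both psh1 libraries were below both WT libraries. It was 1 frame of 8 called, where 6.9% of all features were called lower and 14.5% either way; without psh1 replicate 2 the share of all features called either way was 1.46%. That call was made under 5 of 16 alternative settings, with an adjusted p of 0.0343 to 0.183, and was lost when either WT, either psh1 or either psh1 cac2 library was left out; the change itself stayed between -0.35 and -0.25.

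The other Ty3 frames had values in the same direction without passing the test. YGR109W-B had an RPKM of 5.77 and 5.96 in psh1, against 7.43 and 7.00 in WT, with a log2 change of -0.26 (SE 0.0906, limma adjusted p = 0.0952). Its gag frame YGR109W-A had 2.64 and 2.65, against 4.24 and 3.37 in WT, with a log2 change of -0.39 (SE 0.122, limma adjusted p = 0.067). The gag frame YIL082W had 6.28 and 7.06, against 8.74 and 8.25, with a log2 change of -0.31 (SE 0.0935, limma adjusted p = 0.0629). In each of these the psh1 and WT libraries did not overlap.

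For Ty4 the gag-pol frame YJL113W had 8.55 and 8.99 in psh1 against 10.7 and 10.1 in WT, with a log2 change of -0.22 (SE 0.0658, limma adjusted p = 0.0591). The near copy YHL009W-B had 7.84 and 7.50 against 9.50 and 8.79, with a log2 change of -0.23 (SE 0.0792, limma adjusted p = 0.0957). Neither group pair overlapped. The gag frames were YHL009W-A, at 4.98 and 5.12 against 7.02 and 5.68, and YJL114W, at 3.85 and 3.03 against 5.16 and 3.81, where the groups overlapped.

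Over the 8 frames the estimates in psh1 ran from -0.39 to -0.22 with a median of -0.29, and 8 of 8 were below 0 under every setting tried. The psh1 libraries were below WT without overlap in 7 of 8 frames, against 27.9% of all features, and 7 had an unadjusted p under 0.05, as did 31.9% of all features. The median was -0.0015 over all features and -0.04 over the 452 features of like level. Of the latter, 56.6% had estimates below 0 and 10.8% were called lower. Ty1 and Ty2 frames had a median of -0.41 and a range of -0.46 to -0.27, with 79 of 81 called lower. That count was 0 without WT replicate 1 and 0 without psh1 replicate 2, where the median was -0.37 and -0.40. Levels of the galactose-induced RNAs CSE4 and GAL1 moved with this contrast, CSE4 from a mean RPKM of 15605 in WT to 9871 in psh1 and GAL1, the galactokinase gene, from 2023 to 2834; their part in the result was not tested.

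Between the psh1 cac2 mutant and WT no Ty3 or Ty4 frame passed the test. YIL082W-A had 10.4 and 10.6, YGR109W-B 7.23 and 7.65, YHL009W-B 9.72 and 8.66, and YJL113W 10.7 and 10.1, and the last 3 overlapped WT. The psh1 cac2 libraries were below WT without overlap in 2 of 8 frames, YIL082W and YIL082W-A, against 27.4% of all features. Of the 8 frames 0 were called with limma, where 6.05% of all features were, and 0 had an unadjusted p under 0.05, against 24.8% of all features. The estimates ran from -0.14 for YIL082W to 0.04 for YGR109W-B with a median of -0.03, and 8 of 8 lay below 0 under total-read scaling and quantile normalization. Total-read scaling put the frames' median at -0.10 and that of all features at -0.08, so relative to all features it was -0.02 under both scalings, while quantile normalization gave -0.13 and -0.0008. The 95% interval ran from -0.15 to 0.15 for YJL113W, the narrowest of the 8, and from -0.48 to 0.31 for YJL114W, the widest. In the same libraries 79 of 81 Ty1 and Ty2 frames were called higher than WT, with a median of 0.54 and a range of 0.31 to 0.61. Without psh1 cac2 replicate 2 the count was 0 and the median 0.51, and 0.204% of all features were then called.

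Set against psh1, the double mutant had 3 frames that rose, from both families. YGR109W-A, the Ty3 gag frame, rose from 2.64 and 2.65 in psh1 to 3.80 and 3.94 in psh1 cac2, a log2 change of 0.42 (SE 0.122, limma adjusted p = 0.0426). YGR109W-B, the gag-pol frame that contains it, rose from 5.77 and 5.96 to 7.23 and 7.65, a log2 change of 0.30 (SE 0.0906, limma adjusted p = 0.0491). The Ty4 gag-pol frame YJL113W rose from 8.55 and 8.99 to 10.7 and 10.1, a log2 change of 0.22 (SE 0.0658, limma adjusted p = 0.0456). These 3 of 8 frames were called, where 11.2% of all features were called higher and 23.5% either way, and the psh1 cac2 libraries were above psh1 without overlap in 7 of 8 frames, against 30.5% of all features.

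The other 5 frames had estimates of 0.16 to 0.23, of which YIL082W and YJL114W turned to below 0 under quantile normalization, and the median of the 8 was 0.23, beside -0.02 over all features and 0.11 over the 452 features of like level, of which 90 were called higher. Ty1 and Ty2 frames were called higher in 81 of 81, with a median of 0.95. The mean RPKM of CSE4 was 9871 in psh1 and 23172 in psh1 cac2, and that of GAL1 was 2834 and 2049. Their part in this contrast was not tested. Leaving out any library ended at least 2 of the 3 calls, while the changes stayed at 0.40 to 0.44 for YGR109W-A, 0.26 to 0.33 for YGR109W-B and 0.19 to 0.26 for YJL113W. Scaling to total reads ended all 3, with a frames' median of 0.11 while that of all features moved to -0.14; relative to all features the frames' median was 0.24 with the authors' library sizes and 0.26 with total reads. Adjusted p over the 16 alternatives ran from 0.0337 to 0.194 for YGR109W-A, from 0.0389 to 0.324 for YGR109W-B and from 0.0382 to 0.235 for YJL113W.

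Set against cac2, the double mutant had estimates below 0 in 8 of 8 frames, from -0.29 to -0.08 with a median of -0.14. The median over all features was -0.0059, and 49.6% of the 452 features of like level had estimates below 0. With limma 0 of the 8 frames were called, where 0.895% of all features were. Of the frames 0 had an unadjusted p under 0.05, against 23.8% of all features. The psh1 cac2 libraries were below cac2 without overlap in 7 of 8 frames, against 29% of all features. Ty1 and Ty2 frames had a median of -0.23 with 0 of 81 called. Of these, 81 of 81 were below cac2 without overlap, and 81 of 81 had an unadjusted p under 0.05. The interaction, that is, the departure of the double mutant from the sum of the single mutants' log2 changes, was called by limma in 0 of 8 frames, where 0.0157% of all features were, with estimates of 0.01 to 0.19 and 0 unadjusted p under 0.05, against 13.6% of all features. The widest 95% interval of the interaction was that of YJL114W, from -0.54 to 0.57, and the narrowest that of YJL113W, from -0.11 to 0.32. The comparisons share the WT, psh1 and cac2 libraries, so like values in several of them are not separate evidence.

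Summed over gag-pol frames, Ty3 (YGR109W-B and YIL082W-A) had an RPKM of 18.9 and 17.7 in WT and of 21.5 and 18.4 in cac2, while psh1 had 14.3 and 15.0 and psh1 cac2 had 17.6 and 18.3. Ty4 (YHL009W-B and YJL113W) had 20.2 and 18.9 in WT and 22.0 and 21.1 in cac2, while psh1 had 16.4 and 16.5 and psh1 cac2 had 20.4 and 18.8. The psh1 libraries were the lowest for both families. The cac2 libraries were the highest for Ty4 and overlapped WT for Ty3. The 39 Ty1 and Ty2 gag-pol frames summed to 28853 and 27330 in WT and to 47313 and 46274 in cac2, while psh1 had 21616 and 20666 and psh1 cac2 had 39329 and 40916.

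A ratio of families within a library does not depend on its scaling. It does depend on how reads shared between copies were counted, which the sources used here do not state. The percentages below may therefore not give the true relative amounts of RNA. The Ty3 sum, as a percentage of the separate Ty1 and Ty2 sum, was 0.0655% and 0.0647% in WT and 0.0662% and 0.0728% in psh1. In the cac2 libraries it was 0.0454% and 0.0398%, and in the double mutant 0.0448% and 0.0447%. On the same basis Ty4 was at 0.0699% and 0.0692% in WT and at 0.0758% and 0.0798% in psh1, as against 0.0466% and 0.0457% in cac2 and 0.0518% and 0.0459% in the double mutant. The 4 libraries without CAC2 RNA therefore lay below the 4 with it for both families, while psh1 lay above WT in both. No test was made of these ratios. The ratio of Ty3 to Ty4 ran from 0.866 to 0.976 over the 8 libraries, at 0.937 and 0.935 in WT and lower, at 0.873 and 0.912, in psh1, while cac2 and psh1 cac2 spanned the WT values.

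**Figure D5:**
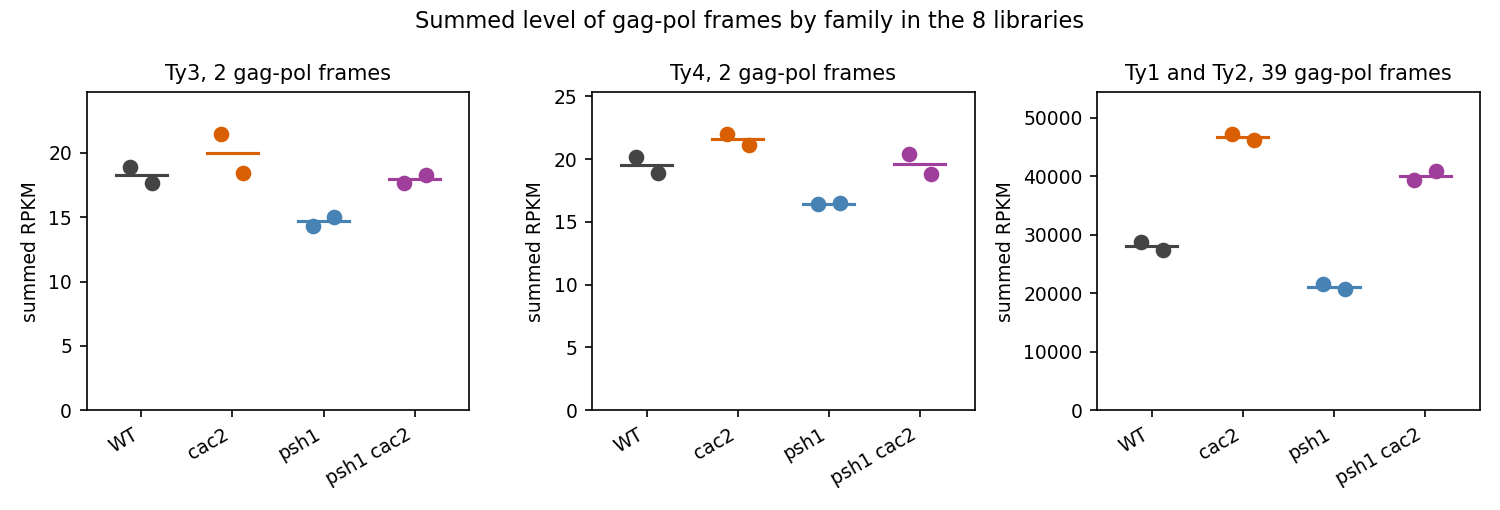
Summed RPKM of gag-pol frames (linear axes from 0, each with its own range) by library for Ty3, Ty4 and the 39 Ty1 and Ty2 frames; bars are means of 2. Ty3 lies between 14.3 and 21.5 and Ty4 between 16.4 and 22.0, while Ty1 and Ty2 lie between 20666 and 47313 with cac2 and psh1 cac2 above WT.

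A pair of features outside the named 8 were read out as well. YPL060C-A, the frame of another Ty4 element, had 6.63 and 5.84 in WT and 6.92 and 7.06 in cac2, while psh1 had 5.48 and 4.79 and the double mutant 6.14 and 6.20. Its log2 change was -0.24 in psh1 (limma adjusted p = 0.122) and 0.14 in cac2 (limma adjusted p = 0.39). Some stretches of 100 bases in YHL009W-B and YJL113W occur up to 3 times in the genome. Reads that YPL060C-A may share with the named Ty4 frames were not examined, so its values are not separate evidence. YIL080W changed by -0.29 in psh1 (limma adjusted p = 0.0573) and by 0.07 in cac2 (limma adjusted p = 0.641). The sequence and position of YIL080W were not examined, so whether it overlaps YIL082W-A or shares reads with it is not known here.

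Genes that act on these elements were described as lists. In the pheromone pathway to Ste12, 18 of 18 genes were tested, and 4 were called lower in cac2 against WT: STE2 (-0.54, the alpha-factor receptor), GPA1 (-0.44, the G protein alpha subunit), FUS3 (-0.35, the mating MAP kinase) and SST2 (-0.34, the regulator that turns the G protein off), with limma adjusted p of 0.00751, 0.00463, 0.0497 and 0.0344, where 1.51% of all features were called lower. All 4 were also called lower in psh1 cac2 against WT, at -0.57 for STE2, -0.58 for GPA1, -0.39 for FUS3 and -0.43 for SST2, where DIG2, an inhibitor of Ste12, was called higher at 0.45; of all features 6.05% were called either way there. STE12 itself was called in no comparison. In psh1 against WT the 1 gene called was STE3, the a-factor receptor, lower at -0.54 (limma adjusted p = 0.0104), where 6.9% of all features were called lower. In psh1 cac2 against psh1, 3 were called higher, STE3 at 0.65, DIG2 at 0.47 and KSS1, the kinase of filamentous growth, at 0.42, and 5 lower, among them GPA1 at -0.53, TEC1, the partner of Ste12 at Ty1 promoters, at -0.38, STE2 at -0.36 and MCM1 at -0.25, where 11.2% of all features were called higher and 12.2% lower. Against WT the list's median was -0.12 for cac2, -0.07 for psh1 and -0.15 for the double mutant, beside -0.0080 to -0.0015 over all features.

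The shares of all features called either way, against which the next counts are read, were 4.26% for cac2, 14.5% for psh1 and 6.05% for the double mutant, each against WT, and 23.5% for the double mutant against psh1. Of 9 TFIIIB and TFIIIC genes, which guide Ty3 insertion, the one called was SPT15, which encodes the TATA-binding protein, lower in psh1 (-0.29, limma adjusted p = 0.0385) and higher in psh1 cac2 than in psh1 (0.30, limma adjusted p = 0.0255). Of 14 genes of RNA polymerase III and its repressor Maf1, MAF1 was called, lower in psh1 cac2 than in WT (-0.29, limma adjusted p = 0.0431). Among 26 chromatin factors that act on Ty transcription 0 were called in cac2 or psh1 against WT. In psh1 cac2 against WT the histone acetyltransferase gene RTT109 was higher (0.48, limma adjusted p = 0.0292) and MSI1, which encodes another CAF-1 subunit, lower (-0.24, limma adjusted p = 0.0415). Against psh1 the elongation factor genes SPT6 (-0.38) and SPT5 (-0.29) and the FACT gene POB3 (-0.20) were lower. Of 13 genes of RNA decay, UPF3, of nonsense-mediated decay, was lower in the psh1 mutant than in WT (-0.33, limma adjusted p = 0.0463), and DHH1 (-0.31) and CCR4 (-0.21), of decapping and deadenylation, were lower in psh1 cac2 against psh1.

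Within 5 kb of the elements' frames 20 genes were tested, and 3 were called in psh1 against WT and 3 in psh1 cac2 against psh1, where 14.5% and 23.5% of all features were. In cac2 and in psh1 cac2 against WT 0 were called. In psh1 against WT CLB1, a mitotic cyclin gene upstream of YGRWTy3-1, was higher (0.91, limma adjusted p = 0.0214), and NCA3 (-0.66, limma adjusted p = 0.0173) and ETP1 (-0.24, limma adjusted p = 0.047), upstream of YJLWTy4-1 and YHLWTy4-1, were lower. In psh1 cac2 against psh1 NCA3 was higher (0.44) and YGR111W (-0.23) and THS1, the threonyl-tRNA synthetase gene (-0.39), were lower. The neighbours' median was -0.06 in psh1 and -0.08 in cac2, each against WT.

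Of 5423 features that are no Ty frames and reached a mean RPKM of 10, those whose profile over the 8 libraries was most like the summed Ty3 frames were YLL067C (Pearson r = 0.989) and YRF1-7 (0.988), both Y′ element helicase genes of chromosome ends, YML003W (0.9875) and SWT21 (0.985). For the summed Ty4 frames they were the co-chaperone gene SGT1 (0.985), YRF1-3, another Y′ helicase gene (0.979), ELA1, encoding elongin A (0.979), and YCL002C (0.976). YIL080W was left out of this search by name, so its likeness to either family is not given. The correlations describe 8 libraries that share their genotypes and scaling. YLL067C, YRF1-7 and YRF1-3 belong to a repeated family whose reads are also shared between copies, and their log2 changes were 0.11 to 0.13 in cac2 and -0.20 to -0.18 in psh1, each against WT.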

How the data were processed

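Strand-specific libraries were made from rRNA-depleted RNA of 4 strains, per the labels' protocols. The authors deposited linear RPKM values, 7126 features by 8 libraries. Tools named, without roles, in the submitters' processing notes are edgeR 3.14.0, TopHat2 2.0.13 and bcl2fastq 2.18, and the build is sacCer3. For features with a RefSeq length, 99.808% of values were whole multiples of 1 read (tolerance 0.01 reads), which gave the reads and each library size; the authors' library sizes were 0.932 to 1.071 times the recovered totals. YIL082W has no RefSeq entry, and the length of 873 used for it is the shortest that makes its values whole.

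Log2(RPKM + 1) was fitted, for features reaching a mean RPKM of 1, with limma 3.58.1 (R 4.3.3; trend, all 8 libraries, genotype as the term, 4 residual and 3.85 prior degrees of freedom). Two-sided p-values were adjusted by Benjamini-Hochberg over the 6366 features, with a threshold of 0.05. The fit was also run on simulated data with changes larger than any seen in the frames. That run cannot show how well changes as small as theirs are called. Intervals are at 95%. Counting errors cover counting alone.

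The frames, gene lists and rules for named genes (all frames, genes within 5 kb, the 4 most alike features per family, called list members of smallest p, at most 4 each way) were chosen with earlier results of these data known. The first 200 bases of the LTRs were searched for motifs after the planned windows had been seen. Alternatives were another pseudocount, no filter, other scalings, a replicate block, subsets of features and libraries, and voom on recovered reads. Sequences and annotations are RefSeq's for R64.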

Additional observations from a re-analysis of the deposited data

How the results depend on the processing

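Counts of called frames were 0 under every setting in cac2 against WT, in psh1 cac2 against WT or cac2, and for the interaction. In psh1 against WT the count of 1 became 0 without a filter, with total-read scaling, with quantile normalization, with the compared groups alone and without the Ty1 and Ty2 frames, and it was 0 to 1 when 1 library was left out. In psh1 cac2 against psh1 the count of 3 became 0 with total-read scaling, quantile normalization, the compared groups alone and voom on recovered reads, and was 0 to 1 when 1 library was left out. Where leaving out a library left 1 in a group, that library was assumed to vary like the others.

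With the replicate number as a block, the count was 3 in psh1 against WT (YIL082W-A, YHL009W-B with adjusted p = 0.044 and YJL113W with 0.0459 in limma) and 4 in psh1 cac2 against psh1 (the 3 called without the block and YHL009W-B with 0.0329). Of the 6 correlations of deviations between genotypes, 0.038 to 0.443, those of cac2 with psh1 and psh1 cac2 were below 0.1. For that reason the numbers were not taken to pair the libraries. The others were 0.309 for cac2 with WT, 0.335 for psh1 cac2 with WT, 0.34 for psh1 with WT and 0.443 for psh1 with psh1 cac2. Over all features the block gave 312 higher and 509 lower calls in cac2 against WT, where 175 and 96 were called without it. In psh1 against WT it gave 886 and 739, where 487 and 439 were called without it. Whether libraries of the same number share an effect was not tested.

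Of the log2 changes of single frames under alternatives, 675 kept their direction and side of the threshold, 45 lost and 3 gained a call, and 37 changed sign, all of them among values that did not pass the threshold. In cac2 against WT, total-read scaling gave -0.064 for YIL082W, -0.048 for YIL082W-A, -0.086 for YHL009W-A and -0.0039 for YJL113W. Voom gave -0.072, -0.052, -0.095 and -0.0042 for these, and quantile normalization gave -0.054 for YIL082W and -0.080 for YHL009W-A. Leaving out a library gave ranges of -0.042 to 0.15 for YIL082W, -0.026 to 0.17 for YIL082W-A and -0.10 to 0.16 for YHL009W-A. In psh1 cac2 against WT, total-read scaling, quantile normalization and voom gave -0.037, -0.13 and -0.040 for YGR109W-A, -0.030, -0.061 and -0.034 for YGR109W-B, and -0.065, -0.057 and -0.072 for YHL009W-B. Leaving out a library gave -0.11 to 0.16 for YGR109W-A, -0.19 to 0.073 for YHL009W-A, -0.070 to 0.080 for YHL009W-B, -0.26 to 0.093 for YJL114W and -0.036 to 0.033 for YJL113W. In psh1 cac2 against psh1, quantile normalization gave -0.010 for YIL082W and -0.028 for YJL114W. For the interaction of YJL114W it gave -0.10, and leaving out a library gave -0.17 to 0.19. The cause of these moves was not tested.

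Over all features, calls in cac2 against WT were 175 higher and 96 lower, and 163 and 1189 with total-read scaling. In psh1 cac2 against psh1 they were 716 and 777, and 427 and 2194. In psh1 against WT they were 487 and 439, 831 and 331 with total-read scaling, and 886 and 342 with voom. Depth limits the gag frames YGR109W-A and YJL114W, at 74 to 134 reads per library.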
